A study of Mus musculus with 9 samples.

Results

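The genes that load antigen peptides onto major histocompatibility complex (MHC) class II molecules and control their expression were followed in meningeal lymphatic endothelial cells (MLECs) of mice with and without an intracranial tumor. They were 10 of the 24321 genes in the deposited expression table, taken by gene symbol: the class II chains H2-Aa, H2-Ab1 and H2-Eb1, the peptide exchange factor genes H2-DMa and H2-DMb1, the invariant chain Cd74, the transcriptional regulators Ciita and Rfx5, and the lysosomal enzymes Ctss and Ifi30. Each symbol had 1 row in the table.

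The RNA-seq libraries came from 9 samples of male mice aged 10 weeks, with 3 libraries in each group. Control mice had received PBS, and the tumor-bearing mice had received cells of GL261, a mouse glioma line, or B16, a mouse melanoma line. The labels give 100000 cells in 5 µl of PBS placed in the cisterna magna, with collection after about 3 weeks for GL261 and about 2 weeks for B16, whereas the methods describe injection under the dura and other cell numbers. Each library held 10 cells sorted from meninges pooled from 6 mice, so the replicates are separate pools. The labels and the methods gate MLECs as CD31+ CD45- with LYVE-1, while the text on the sort names PDPN in its place. The methods give C57BL/6 mice, and the sources used here name no transgene in the sequenced mice. With so few cells per library, fewer cells of a type and less RNA per cell cannot be told apart.

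MHC class II molecules are pairs of an alpha and a beta chain that carry peptides from endocytosed proteins to the cell surface, where CD4+ T cells read them. The invariant chain fills the groove of new class II molecules until cathepsin S trims it in the endosome, after which H2-DM, a heterodimer of the H2-DMa and H2-DMb1 products, exchanges the remaining fragment for antigen peptide. Dendritic cells, macrophages and B cells express the pathway constitutively, other cells including lymphatic endothelium can express it after exposure to interferon-gamma, and the coactivator CIITA controls most of its genes.

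Values are given in FPKM, the fragments per kilobase of transcript, scaled to the mapped fragments of a library, that Cufflinks estimated for each gene, so levels can be compared between genes. The sum of all FPKM ran from 652636 to 693117 across control libraries and from 701951 to 888312 across tumor-associated ones, and the genes above 0 numbered 7303 to 8688 and 8736 to 10852, respectively. By the study's read totals every control library had fewer aligned reads than every tumor-associated library, so depth and tumor cannot be told apart. Tbp, a general transcription factor gene that all cells use, was listed at 0 in control replicates 1 and 3, and a 0 is therefore reported as a listing and not as absence. Among 20 genes that every cell uses, 4 were called higher in tumor-associated MLECs, among them Actb, Gapdh and Tbp, and 0 lower. Over all genes tested the shares were 2.9% higher and 1.02% lower. Differences are on the log2(FPKM + 1) scale, on which a fold change of a gene with few FPKM looks smaller than it is, and were tested with limma at an adjusted p of 0.05 over 9955 genes, namely those that reached 1 FPKM in 3 or more libraries.

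The class II genes were patchy across libraries of the same group. None of the 10 was above 0 in all 9 libraries. Of the 13553 genes above 0 in at least 1 library 4525 were, so most other genes were not above 0 throughout either. Control replicates 1, 2 and 3 had 2, 3 and 5 of the 10 genes above 0. The GL261 replicates had 9, 9 and 7, and the B16 replicates 7, 2 and 5. The FPKM of the 10 genes summed to 2.92, 13.3 and 237 in control MLECs, to 402, 2244 and 200.1 in GL261 MLECs, and to 190, 4.20 and 102 in B16 MLECs. Control replicate 3 thus lay above the lowest GL261 library and above all B16 libraries, and B16 replicate 2 lay between control replicates 1 and 2.

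**Figure D1:**
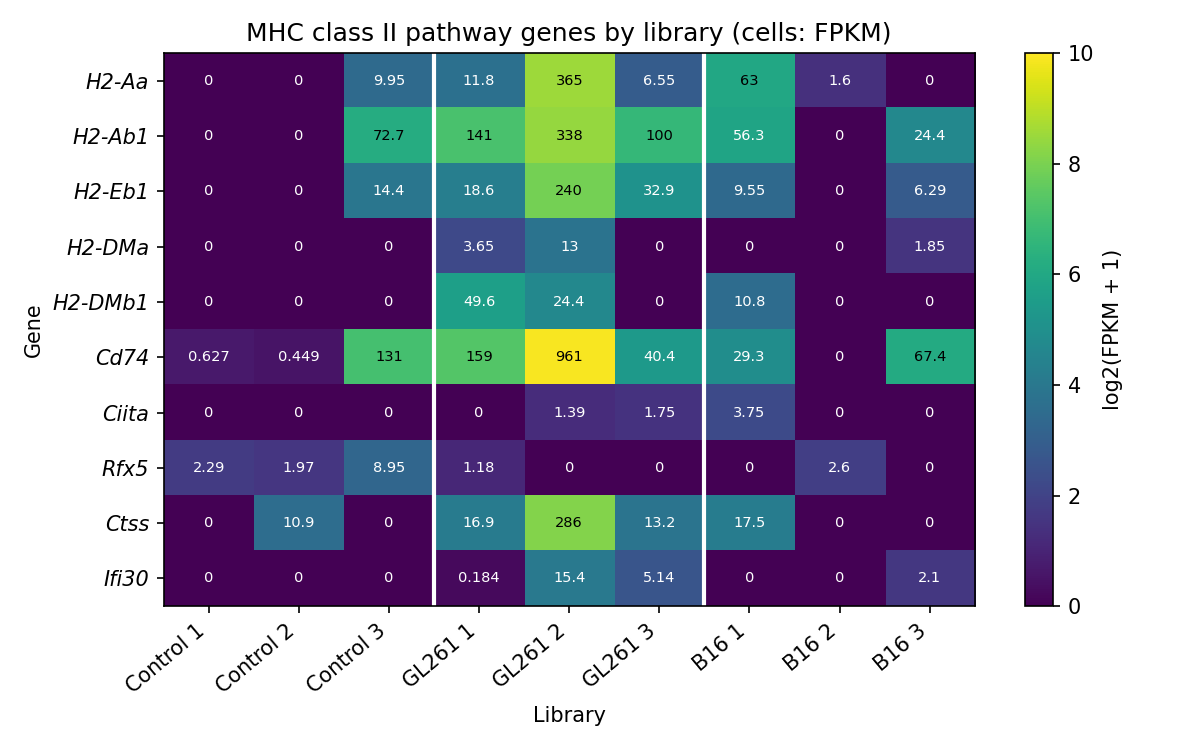
FPKM of the 10 MHC class II pathway genes (rows) in each of the 9 libraries (columns), with the FPKM written in each cell and the color giving log2(FPKM + 1). GL261 replicate 2 holds the highest value of 7 genes, B16 replicate 2 is listed at 0 for 8 genes, and control replicate 3 differs from the other two controls in H2-Aa, H2-Ab1, H2-Eb1 and Cd74.

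All 10 genes passed the filter on low values, but Ciita, H2-DMa, H2-DMb1 and Ifi30 were listed at 0 in every control library (4 of 10, against 6.56% of the genes tested). These 4 genes passed only through tumor-associated libraries and could not have been lower in tumor-associated MLECs. Their fitted differences depend on the pseudocount and are not fold changes. H2-Aa, H2-Ab1, H2-Eb1, Cd74 and Ctss reached 1 FPKM in 1 control library each and so also needed tumor-associated libraries to pass, and Rfx5 was the gene that passed by its controls alone. Counts and medians over the genes that passed are therefore given as a description.

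H2-Ab1, the beta chain of the I-A molecule, lies on chromosome 17 of mm9 from 34400154 to 34406363 on the plus strand. It was listed at 0 in control replicates 1 and 2 and had 72.7 FPKM in control replicate 3. It had 141, 338 and 100.2 FPKM in GL261 replicates 1, 2 and 3, and 56.3, 0 and 24.4 FPKM in B16 replicates 1, 2 and 3. All GL261 libraries were above all control and all B16 libraries, and the B16 libraries overlapped the controls. For GL261 against control limma gave a difference of 5.34 (standard error 1.72, adjusted p = 0.128), and for B16 against control one of 1.43 (standard error 1.72, adjusted p = 0.752).

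H2-Aa, the alpha chain that pairs with H2-Ab1, lies next to it on the minus strand (chromosome 17, 34406276 to 34424772). The annotated genes overlap by 88 bases, and since the sources used here do not state whether reads were counted by strand, reads in that stretch cannot be assigned to either gene. H2-Aa was listed at 0 in control replicates 1 and 2, with 9.95 FPKM in control replicate 3. Its FPKM were 11.8, 365 and 6.55 in GL261 MLECs and 63.0, 1.60 and 0 in B16 MLECs. GL261 replicate 3 was below control replicate 3, so the groups overlapped. For GL261 against control the difference was 3.89 (standard error 1.78, adjusted p = 0.296), and for B16 against control it was 1.31 (standard error 1.78, adjusted p = 0.786).

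H2-Eb1, the beta chain of the I-E molecule (chromosome 17, 34442828 to 34453144, plus strand), followed the same order of libraries as H2-Ab1 in the controls, with 0, 0 and 14.4 FPKM. It had 18.6, 240 and 32.9 FPKM in GL261 MLECs, and 9.55, 0 and 6.29 FPKM in B16 MLECs. All GL261 libraries were above all control and B16 libraries, and no B16 library reached control replicate 3. The difference was 4.45 for GL261 against control (standard error 1.37, adjusted p = 0.112) and 0.77 for B16 against control (standard error 1.37, adjusted p = 0.843). C57BL/6 mice lack a functional I-E alpha gene, and the table lists the corresponding H2-Ea-ps at 0.26 and 0.25 FPKM in GL261 replicates 1 and 2 and at 0 elsewhere. The coding sequence of H2-Eb1 is 79.0% identical to that of H2-Eb2, which was listed at 0 in every library.

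H2-Aa, H2-Ab1 and H2-Eb1 were listed at 0 in control replicates 1 and 2 and above 0 in control replicate 3, a pattern found in 5.2% of the genes tested. Their values differed most in H2-Aa. In GL261 replicate 2 H2-Aa and H2-Ab1 had 365 and 338 FPKM, whereas in GL261 replicate 3 they had 6.55 and 100.2. In B16 replicate 1 H2-Aa (63.0 FPKM) was slightly above H2-Ab1 (56.3 FPKM), and in B16 replicate 3 it was listed at 0 beside 24.4 FPKM of H2-Ab1.

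Cd74, the invariant chain, was the most abundant of the 10 genes in 4 libraries. It had 0.627, 0.449 and 131 FPKM in control MLECs. In GL261 MLECs it had 159, 961 and 40.4 FPKM, and in B16 MLECs 29.3, 0 and 67.4 FPKM. Control replicate 3 was above GL261 replicate 3 and above every B16 library. The difference was 4.77 (standard error 1.91, adjusted p = 0.223) for GL261 against control and 0.91 (standard error 1.91, adjusted p = 0.868) for B16 against control. The ratio of Cd74 to H2-Ab1 FPKM was 1.80 in control replicate 3, 1.13, 2.84 and 0.403 in the GL261 libraries, and 0.520 and 2.77 in B16 replicates 1 and 3. The ratio of control replicate 3 lay within the range of the GL261 libraries.

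The exchange factor genes H2-DMa and H2-DMb1 (chromosome 17, 34272127 to 34276046 and 34290017 to 34297168, both plus strand) were listed at 0 in every control library. H2-DMa had 3.65, 13.0 and 0 FPKM in GL261 MLECs and 0, 0 and 1.85 FPKM in B16 MLECs. H2-DMb1 had 49.6, 24.4 and 0 FPKM in GL261 MLECs, and 10.8, 0 and 0 FPKM in B16 MLECs. Both subunits were above 0 together in GL261 replicates 1 and 2 and in no B16 library. The values of limma for GL261 against control were 2.01 (adjusted p = 0.287) for H2-DMa and 3.44 (adjusted p = 0.237) for H2-DMb1, and for B16 against control 0.50 (adjusted p = 0.845) and 1.19 (adjusted p = 0.750). H2-DMb1 shares 754 of 786 coding bases with its neighbor H2-DMb2, so reads could be split between these genes and the value of each is uncertain. H2-DMb2 was at most 0.13 FPKM in any library.

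Ciita encodes the coactivator that assembles on class II promoters, and Rfx5 a subunit of the RFX complex that binds their X box. Ciita (chromosome 16, 10480237 to 10527657, plus strand) was listed at 0 in every control library, had 0, 1.39 and 1.75 FPKM in GL261 MLECs, and had 3.75, 0 and 0 FPKM in B16 MLECs. It was above 0 in 3 of the 6 tumor-associated libraries and was listed at 0 in GL261 replicate 1, in which H2-Ab1 had 141 FPKM, and in control replicate 3. Rfx5 (chromosome 3, 94757997 to 94765483, plus strand) had 2.29, 1.97 and 8.95 FPKM in control MLECs, 1.18, 0 and 0 FPKM in GL261 MLECs, and 0, 2.60 and 0 FPKM in B16 MLECs. Rfx5 had the opposite order, with all GL261 libraries below all controls and B16 replicate 2 within the control range. Its difference was -1.71 (standard error 0.68, adjusted p = 0.194) for tumor-associated against control MLECs, -1.83 (standard error 0.80, adjusted p = 0.272) for GL261 and -1.59 (adjusted p = 0.378) for B16. The values of the other subunits of the RFX complex did not pass the threshold either, with -1.15 for Rfxank (adjusted p = 0.486) and 0.24 for Rfxap (adjusted p = 0.936) in tumor-associated against control MLECs.

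Ctss encodes cathepsin S (chromosome 3, 95330708 to 95360325, plus strand). It had 0, 10.9 and 0 FPKM in control MLECs, 16.9, 286 and 13.2 FPKM in GL261 MLECs, and 17.5, 0 and 0 FPKM in B16 MLECs. All GL261 libraries were above all controls, and unlike the class II chains the control above 0 was replicate 2. The difference was 4.20 (standard error 1.54, adjusted p = 0.180) for GL261 against control and 0.21 (standard error 1.54, adjusted p = 0.969) for B16. Ifi30, which encodes the thiol reductase GILT that opens disulfide bonds of antigens (chromosome 8, 73286673 to 73291050, minus strand), was listed at 0 in every control, had 0.184, 15.4 and 5.14 FPKM in GL261 MLECs, and had 0, 0 and 2.10 FPKM in B16 MLECs. Its lowest GL261 value was close to 0, and its difference was 2.30 for GL261 against control (standard error 0.92, adjusted p = 0.225) and 0.54 for B16 against control (adjusted p = 0.835).

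Class II promoters share an X box, bound by the RFX complex, and a Y box, bound by NF-Y, upstream of the transcript start. RefSeq promoters on GRCm38.p6, each of 300 bases with 250 before the start, were present for 7 of the 10 genes, which leaves out H2-Ab1, Cd74 and Ciita. They were searched on both strands for an X box core (AACNNATGA), a Y box (TGATTGG) and a site of interferon regulatory factors (GAAA, NN, GAAA), with letters chosen after these promoters had been read. These motifs occur in 2.85%, 7.82% and 3.44% of all 32851 promoters. The 150 bases before the start are printed for the promoters of chain, H2-DM and cathepsin S genes that hold a match, 5′ to 3′ along the gene with the match in capitals, to show how the boxes are spaced.
H2-Aa, chr17:34287824-34287973, minus strand, Y box in capitals: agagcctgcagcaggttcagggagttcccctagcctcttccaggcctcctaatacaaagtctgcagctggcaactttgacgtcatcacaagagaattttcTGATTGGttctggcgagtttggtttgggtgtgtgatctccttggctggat
H2-Eb1, chr17:34305717-34305866, plus strand, X box core and then Y box in capitals: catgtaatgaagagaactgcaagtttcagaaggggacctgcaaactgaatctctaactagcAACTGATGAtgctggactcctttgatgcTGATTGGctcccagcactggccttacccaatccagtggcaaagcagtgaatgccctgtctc
H2-DMb1, chr17:34153041-34153190, plus strand, X box core and then Y box in capitals: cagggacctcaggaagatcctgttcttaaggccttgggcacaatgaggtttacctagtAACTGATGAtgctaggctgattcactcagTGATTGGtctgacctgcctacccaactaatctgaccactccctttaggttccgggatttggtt
Ctss, chr3:95526636-95526785, plus strand, site of interferon regulatory factors in capitals: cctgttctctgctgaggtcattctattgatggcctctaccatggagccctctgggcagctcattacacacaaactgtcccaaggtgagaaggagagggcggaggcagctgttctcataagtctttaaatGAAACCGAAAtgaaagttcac

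The X box core began 89 bases before the start in H2-Eb1 and 92 bases before it in H2-DMb1, with the Y box at 61 and 63 bases before the start. An X box core followed by a Y box within 50 bases was found in 9 promoters (0.0274% of all), and these included those of H2-DMb2 and H2-Ob, whose FPKM were at most 0.13 and listed at 0 in these cells. H2-Aa had a Y box 50 bases before its start. No match of the X box core letters was found there, which does not show that H2-Aa lacks an X box. The search allowed no mismatch in the fixed letters, so an X box with other letters would be missed. Rfx5 had a Y box on the opposite strand at 113 and at 54 bases before its start, and Ctss had the interferon regulatory factor letters 21 bases before its start. No match of these letters was found in the promoters of H2-DMa and Ifi30, which says only that the letters are not in this window.

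**Figure D2:**
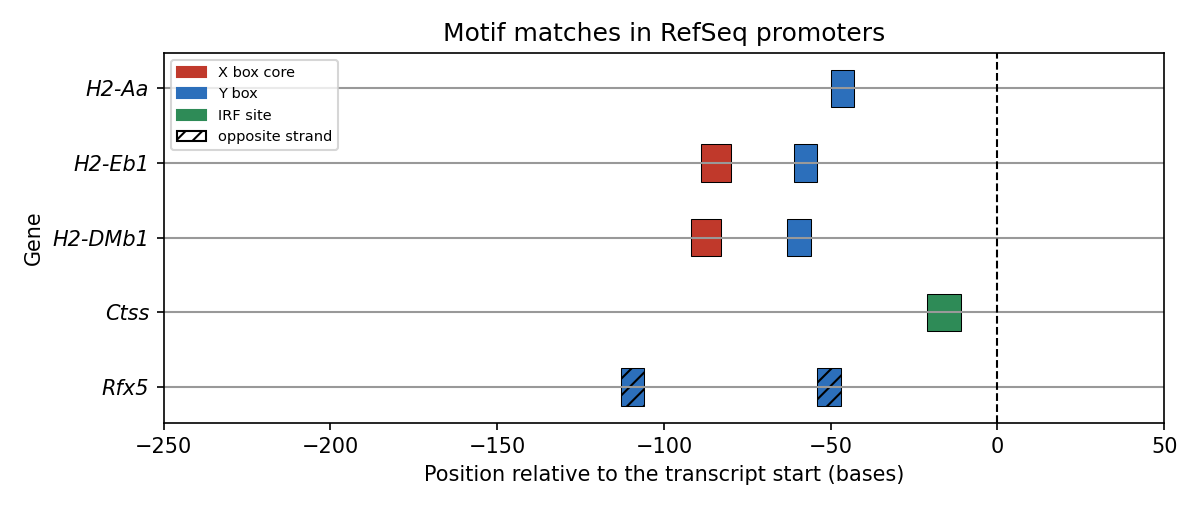
Motif matches in the RefSeq promoters of the class II pathway genes that hold one, drawn to scale against the transcript start at 0, with the position in bases on the x axis and genes on the y axis. H2-Eb1 and H2-DMb1 carry an X box core and a Y box at nearly the same distances (89 and 61 bases, and 92 and 63 bases, before the start), and hatched boxes of Rfx5 lie on the opposite strand. Where a motif is not drawn, only the letters searched for are absent.

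Tumor-associated and control MLECs were compared first with both tumors joined, as in the study. None of the 10 genes was called, whereas limma called 3.93% of the genes tested (391 genes, with 2.9% of the genes tested higher and 1.02% lower). At an unadjusted p under 0.05, 1 of the 10 genes passed, Rfx5, which was lower (background 19% in either direction, 6.32% lower and 12.7% higher). For no gene were the 6 tumor-associated libraries all above or all below the controls (6.08% of the genes tested were separated upwards and 4.44% downwards). Of the 6 genes above 0 in a control, 5 had a positive difference, and the median of the 6 was 2.60. Among all 9302 genes tested that were above 0 in a control, 54.2% were positive and the median was 0.11. Of the 6 genes only Rfx5 passed the filter by its controls alone, so this background is not matched to them. H2-Ab1 had the largest difference, 3.39 (standard error 1.70, adjusted p = 0.302), followed by Cd74 with 2.84 (standard error 1.82, adjusted p = 0.418), H2-Eb1 with 2.61 (standard error 1.43, adjusted p = 0.350) and H2-Aa with 2.60 (standard error 1.59, adjusted p = 0.398). This order rests on single libraries. With a library left out, H2-Ab1 ran from 2.35 (without control replicate 1) to 5.45 (without control replicate 3), Cd74 from 1.73 (without control replicate 2) to 4.99 (without control replicate 3) and Ctss from 1.25 (without GL261 replicate 2) to 3.39 (without control replicate 2). Over the 10 genes the adjusted p lay between 0.194, for Rfx5, and 0.479, for Ciita. A ROC power above 0.4, computed here from the FPKM as deposited, was reached by 9 of the 10 genes, 8 of them as higher. Among the 13553 genes above 0 somewhere, 39.8% reached it (24.5% as higher). Of the 8 genes, Ciita, H2-DMa, H2-DMb1 and Ifi30 were listed at 0 in every control library and could only come out higher. The 24.5% is therefore not a matched background. Further cut-offs were 0.25 for the size of the fold (natural log) and 0.1 for the share of libraries above 0. The study names the same power cut-off, but this computation let far more genes pass than its list holds and is not its procedure. H2-Aa, H2-Ab1, H2-Eb1 and Ctss are on the list of raised genes that the study drew from these libraries, so their direction there is not independent evidence.

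For GL261 against control MLECs the differences above 0 ran from 0.90 for Ciita to 5.34 for H2-Ab1, and 5 of the 6 genes above 0 in a control were positive (background 54.6% of such genes). None of the 10 genes was called at an adjusted p under 0.05 (background 3.49%, 347 genes), and 8 passed at an unadjusted p under 0.05 (background 16.9%). Rfx5 was the lower one (1 of 10, background 5.53%). Of the 6 genes above 0 in a control, Cd74, Ctss, H2-Ab1 and H2-Eb1 were higher (4 of 6, background 9.07% of such genes). H2-DMa, H2-DMb1 and Ifi30 also passed, but with all controls listed at 0 they could only be higher. Every GL261 library was above every control in Ctss, H2-Ab1 and H2-Eb1 (3 of 6, background 10.6%) and below every control in Rfx5 (1 of 10, background 8.84%), and Ifi30 was above its listed zeros in each GL261 library, by 0.184 FPKM in replicate 1. The median difference over the 6 genes was 4.32, against 0.13 over all genes above 0 in a control. Of the 6 genes only Rfx5 passed the filter by its controls alone, and the others needed tumor-associated libraries. The genes above 0 in a control are thus not a matched background, and these counts and medians are a description.

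B16 against control MLECs gave no call among the 10 genes by limma (background 2.11%, 210 genes), none at an unadjusted p under 0.05 (background 15%) and no separated gene (background 10.2% upwards and 7% downwards). Over the 6 genes above 0 in a control the median difference was 0.84, against 0.11 over all such genes, and 5 of 6 were positive (background 54.2%). This background is not matched either, since of the 6 only Rfx5 passed the filter by its controls alone. The standard errors of the 10 genes ran from 0.72 to 1.91 with a median of 1.39, against a median of 0.89 over all genes, so the test does not show that B16 and control MLECs were alike.

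**Figure D3:**
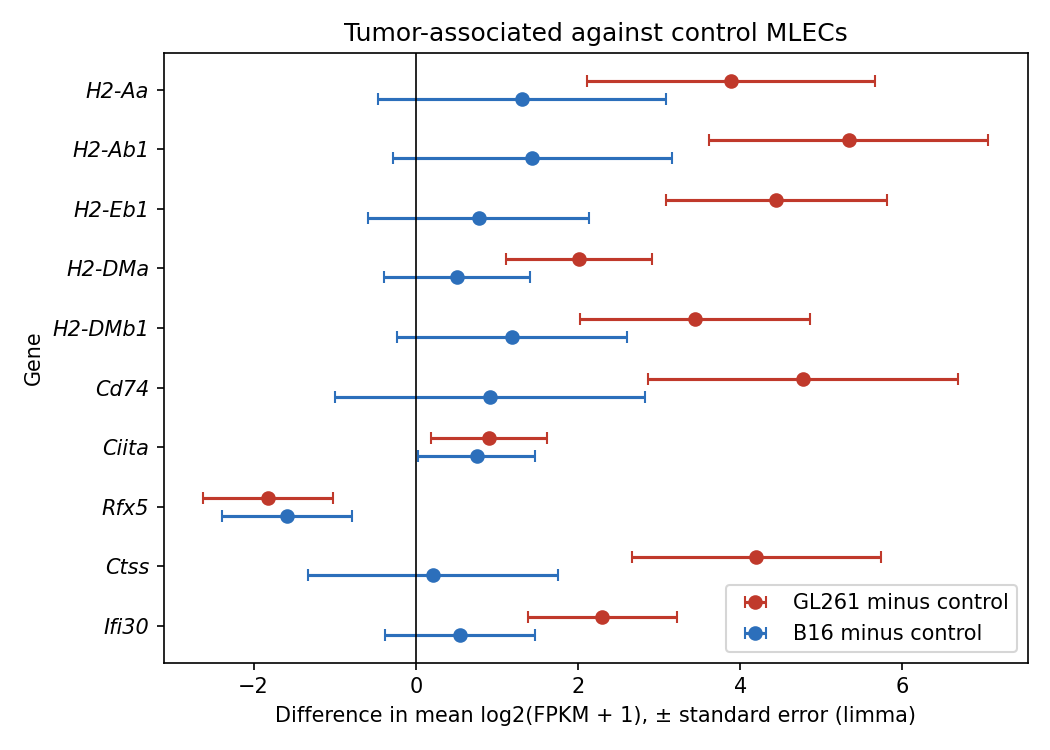
Difference in mean log2(FPKM + 1) between GL261 and control MLECs (red) and between B16 and control MLECs (blue) for each gene, with 3 libraries per group and bars of ± 1 standard error from limma. The GL261 differences of H2-Ab1, Cd74, H2-Eb1 and Ctss are 5.34, 4.77, 4.45 and 4.20 and those of B16 for the same genes lie between 0.21 and 1.43, while Rfx5 is negative in both. The comparisons share the control libraries.

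The tumors were compared directly as well, since both comparisons above share the same controls. By the labels GL261 MLECs were collected about 3 weeks after injection and B16 MLECs about 2 weeks, so tumor line and time cannot be told apart. In GL261 against B16 MLECs none of the 10 genes was called (background 0.01%, 1 gene), and Ctss, H2-Ab1 and H2-Eb1 passed at an unadjusted p under 0.05 as higher in GL261 (3 of 10, background 3.29% higher and 5.5% in either direction). H2-Eb1 differed by 3.67 (standard error 1.37, adjusted p = 0.787), Ctss by 3.98 (standard error 1.54, adjusted p = 0.816) and H2-Ab1 by 3.90 (standard error 1.72, adjusted p = 0.884). The differences of Cd74, H2-Aa and H2-DMb1 were 3.86, 2.58 and 2.26, with overlap between the tumors, and those of Ciita and Rfx5 were 0.15 and -0.24. Every GL261 library was above every B16 library in H2-Ab1 and H2-Eb1 (2 of 10, background 7.13%), and none of the genes was separated in the other direction (background 6.66%). The difference was positive for 9 of 10 genes (background 50.6%), with a median of 2.42 against 0.01 over all genes. Only Rfx5 passed the filter by its controls alone. The other genes needed tumor-associated libraries to pass, so high values in GL261 libraries could themselves bring a gene into the test. The backgrounds of this comparison are thus not matched, and its counts and median are a description.

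Single libraries carried much of these values. GL261 replicate 2 had the highest value of all 9 libraries in 7 of 10 genes (background 5.89%), and B16 replicate 2 was listed at 0 in 8 of 10 (background 14.4%). Both libraries were singled out by the values of these genes, and all of the genes but Rfx5 needed tumor-associated libraries to pass the filter. These shares are therefore not a matched background, and the counts are a description. Without control replicate 3, limma called H2-Ab1 (7.41, standard error 1.43, adjusted p = 0.0264) and H2-Eb1 (5.76, standard error 1.30, adjusted p = 0.0475) for GL261 against control. Both genes were listed at 0 in the remaining controls, so these sizes depend on the pseudocount and the genes passed the filter only through tumor-associated libraries. Over the 16 alternatives the adjusted p ranged from 0.0264 to 0.561 for H2-Ab1 and from 0.0475 to 0.649 for H2-Eb1, and these were the only calls among the 10 genes under any limma alternative. Without GL261 replicate 2, 6 of the 10 genes passed the filter, and the GL261 differences were 4.84 for H2-Ab1, 3.37 for H2-Eb1, 3.59 for Cd74, 2.81 for Ctss and 2.15 for H2-Aa.

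**Figure D4:**
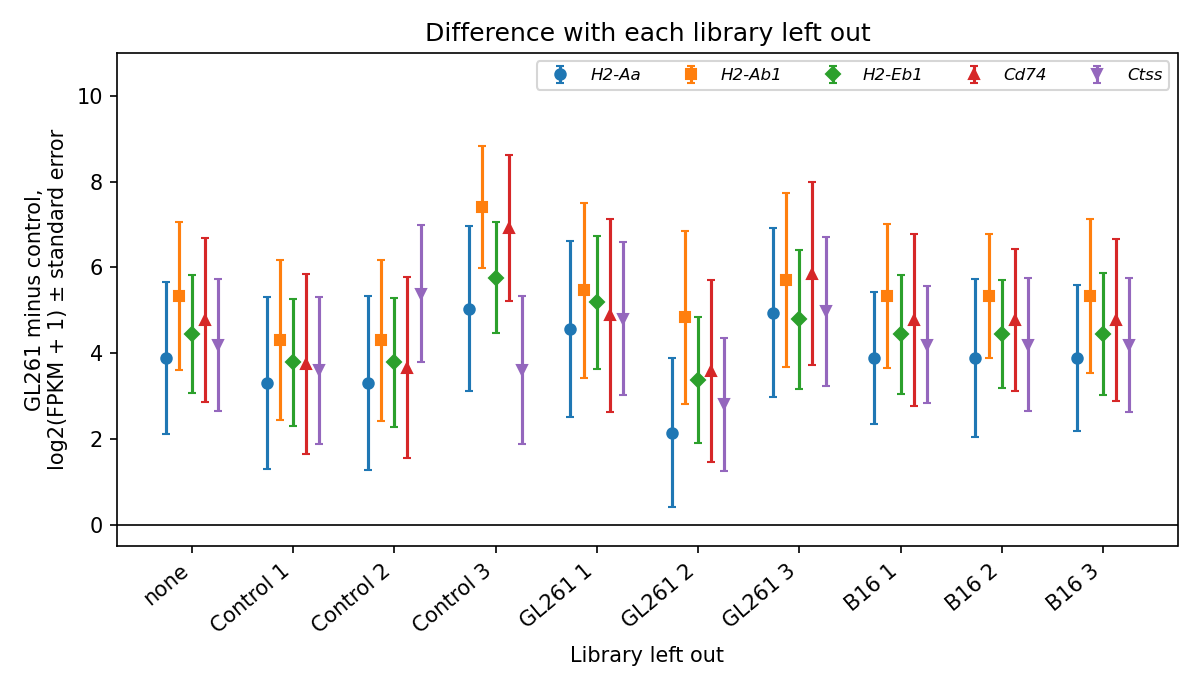
Difference between GL261 and control MLECs in mean log2(FPKM + 1), ± 1 standard error from limma, for H2-Aa, H2-Ab1, H2-Eb1, Cd74 and Ctss with no library left out and with each of the 9 libraries left out in turn. All values stay above 0, H2-Ab1 reaches 7.41 without control replicate 3, and H2-Aa is lowest at 2.15 without GL261 replicate 2.

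Other genes of class II antigen handling were examined as a list of 22, of which 16 were tested. With both tumors joined 1 was called higher and 2 lower, with a median difference of 0.29 (background 2.9% higher and 1.02% lower, with a median of 0.20 over all genes). The higher gene was Lgmn, which encodes the asparagine-specific endopeptidase legumain. Lgmn had 185, 137 and 172 FPKM in control MLECs, 316, 422 and 470 FPKM in GL261 MLECs, and 597, 334 and 603 FPKM in B16 MLECs. All tumor-associated libraries were above all controls, and the difference was 1.43 (standard error 0.28, adjusted p = 0.0128).

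The lower genes were Cst3, which encodes cystatin C, an inhibitor of cysteine cathepsins, and Ctsd, which encodes the aspartic protease cathepsin D. Cst3 had 2784, 2130 and 1758 FPKM in control, 989, 957 and 706 FPKM in GL261, and 933, 1124 and 1389 FPKM in B16 MLECs, a difference of -1.13 (standard error 0.23, adjusted p = 0.0142). Ctsd had 490, 1017 and 598 FPKM in control, 164, 133 and 139 FPKM in GL261, and 424, 199 and 187 FPKM in B16 MLECs, a difference of -1.81 (standard error 0.38, adjusted p = 0.0176). In both genes every tumor-associated library was below every control. In GL261 against control MLECs Lgmn, Cst3 and Ctsd were called in the same directions and Ctsz, a carboxypeptidase of the lysosome, was called lower (-1.51, adjusted p = 0.0470), although Lgmn (1.28, adjusted p = 0.0493) lost the call in 15 of 16 alternatives, Ctsz in 11, and Cst3 and Ctsd in 3 each. Over these alternatives the difference ran from 0.97 to 1.88 for Lgmn, from -1.82 to -1.37 for Ctsz, from -2.37 to -1.15 for Cst3 and from -2.51 to -1.37 for Ctsd. In B16 against control MLECs Lgmn alone was called (1.59, adjusted p = 0.0262). With log2 aligned reads added as a covariate, the adjusted p for tumor-associated against control MLECs was 0.151 for Lgmn, 0.259 for Cst3 and 0.621 for Ctsd. The differences with this covariate were 1.92, -1.23 and -0.86. Without a trend in the variance the adjusted p was 0.103, 0.183 and 0.0876, with the differences of the main fit (1.43, -1.13 and -1.81). Cst3 had -0.96 (adjusted p = 0.0776) without control replicate 1, and Ctsd had -1.50 (adjusted p = 0.0684) without control replicate 2 and an adjusted p of 0.0509 without a filter.

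Lgmn, Cst3, Ctsd and Ctsz were above 0 in all 9 libraries, unlike each of the 10 class II pathway genes. H2-Oa and H2-Ob, which encode the inhibitor of H2-DM, were listed at 0 in every library together with H2-Eb2. March1, a ubiquitin ligase that turns over surface class II, had 1.39 FPKM in GL261 replicate 2 and 0 elsewhere. Of 11 costimulatory and coinhibitory ligand genes, 5 (Cd80, Cd86, Pdcd1lg2, Tnfsf4 and Cd70) were listed at 0 in every library, 3 were tested and 0 were called by limma in any comparison, with 1 at an unadjusted p under 0.05 when both tumors were joined.

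The route from the interferon-gamma receptor to Ciita was examined with 12 genes, all tested. In tumor-associated against control MLECs 0 were called by limma and 4 passed at an unadjusted p under 0.05 (background 3.93% and 19%). For GL261 against control Socs1, which encodes a feedback inhibitor of the receptor's kinases, was called higher (5.07, standard error 1.11, adjusted p = 0.0306). Socs1 was listed at 0 in every control library, with 56.8, 65.6 and 8.84 FPKM in GL261 MLECs and 0.499, 14.3 and 15.8 FPKM in B16 MLECs. It was above 0 in all 6 tumor-associated libraries, and its difference depends on the pseudocount because the controls were listed at 0. The call was lost in 8 of 16 alternatives. Among them were each control library left out in turn and GL261 replicates 1 and 2 left out (adjusted p = 0.0556 to 0.141), and aligned reads as a covariate, with which the difference was -0.40 (adjusted p = 0.979).

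Irf1, which encodes a transcription factor that activates Ciita, was chosen after its values were seen, as were Socs1 and Ctsz above. Irf1 had 0.328, 10.7 and 40.4 FPKM in control, 61.3, 51.9 and 135 FPKM in GL261, and 33.4, 109 and 47.9 FPKM in B16 MLECs, a difference of 2.93 (standard error 0.86, adjusted p = 0.0820) for tumor-associated against control MLECs. Control replicate 3 had the highest Irf1 of the controls and overlapped B16 replicate 1.

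Markers of other cells that carry class II were read in the same libraries. Of 29 myeloid and dendritic cell markers in the table, 8 to 10 were above 0 in control libraries, between 15 and 21 in GL261 libraries and between 6 and 11 in B16 libraries. Their summed FPKM was 393 to 702 in control, between 276 and 918 in GL261, and between 91.6 and 505 in B16 MLECs, so the groups overlapped. Of the 11 tested, 0 were called in tumor-associated against control MLECs and 2 passed at an unadjusted p under 0.05 (background 3.93% and 19%). Mrc1, a mannose receptor, was called lower by limma in GL261 against control MLECs (-4.27, adjusted p = 0.0216). It was the only call among the 11 in that comparison (background 3.49% in either direction). Ptprc, which encodes CD45, the antigen excluded by the sort, and Adgre1 were listed at 0 in all 9 libraries. Itgam was 0.119 FPKM in B16 replicate 2 and 0 elsewhere.

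GL261 replicate 2, the library with the most class II RNA, also had the highest value of 9 of the 24 myeloid and dendritic markers above 0 somewhere. The share over all genes tested was 5.89%, which is not matched to these markers. Other markers were not raised in that library. Fcer1g (43.5 FPKM) and Mrc1 (1.37 FPKM) were below every control there, Cd14 (18.6 FPKM) was within the control range, and Spi1 was listed at 0. Itgax (1.58 FPKM) and Csf1r (4.61 FPKM) were above 0 in GL261 replicate 2 alone. Lyz2, which encodes lysozyme, had 0, 145 and 60.6 FPKM in control MLECs, 2.33, 324 and 14.8 FPKM in GL261 MLECs, and 13.8, 11.4 and 0 FPKM in B16 MLECs. C1qa, a complement subunit of macrophages, had 33.1, 46.2 and 5.88 FPKM in control, 0.323, 186 and 22.4 FPKM in GL261, and 44.7, 0 and 0 FPKM in B16 MLECs. GL261 replicate 1, with 141 FPKM of H2-Ab1 and 159 FPKM of Cd74, had 16 of the 29 markers above 0 and a marker sum of 276 FPKM, led by Fcer1g (108 FPKM) and Cd14 (95.3 FPKM). Tyrobp, a signaling adaptor of myeloid cells, had 0, 0 and 71.2 FPKM in control MLECs, 10.5, 43.5 and 2.49 FPKM in GL261 MLECs, and 34.7, 0 and 0 FPKM in B16 MLECs. Control replicate 3, the control with the class II chains, had the highest marker sum of the controls (702 FPKM). It was the highest control in Tyrobp, Fcer1g (390 FPKM), Mrc1 (82.2 FPKM), C1qb (25.1 FPKM), C1qc (30.4 FPKM), Spi1 (31.7 FPKM) and Cd53 (0.321 FPKM). Tyrobp, C1qc, Spi1 and Cd53 were listed at 0 in the other controls, as the class II chains were. Control replicate 3 was the lowest control in Cd68 (0 FPKM), Cd14 (4.64 FPKM), C1qa and Aif1 (0 FPKM). The part of these markers in the class II values was not tested.

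**Figure D5:**
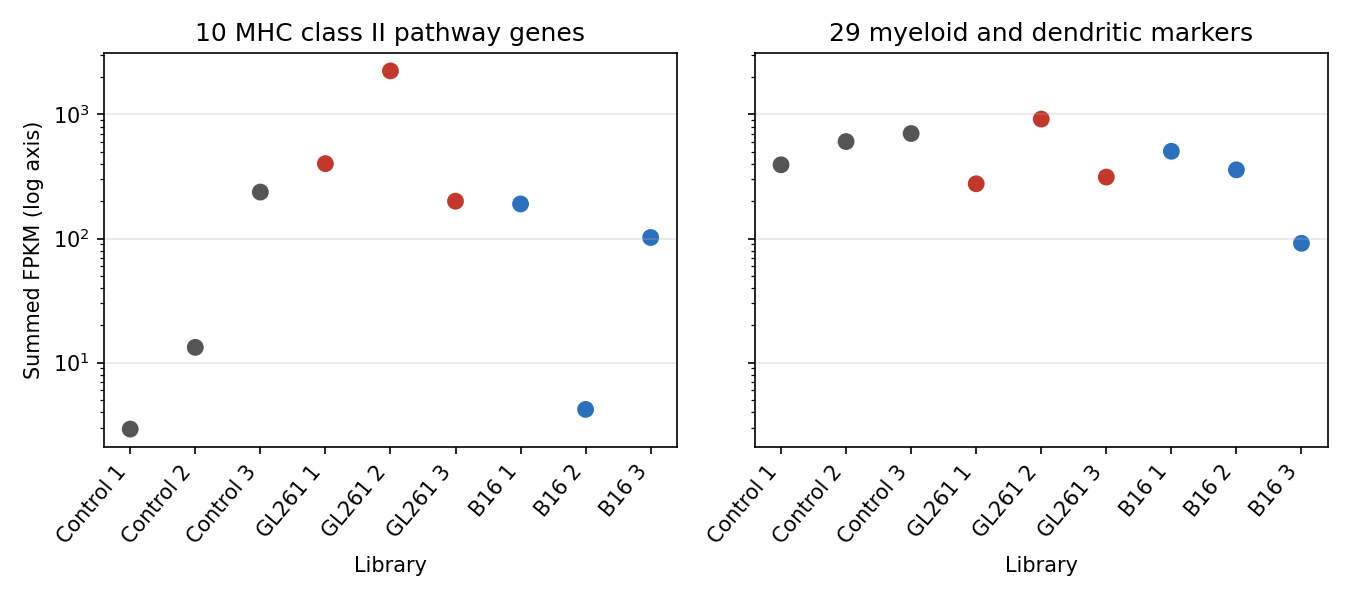
Summed FPKM (log axis) of the 10 MHC class II pathway genes (left) and of 29 myeloid and dendritic cell markers (right) in each control (gray), GL261 (red) and B16 (blue) library. The class II sum runs from 2.92 in control replicate 1 to 2244 in GL261 replicate 2, and the marker sum from 91.6 in B16 replicate 3 to 918 in GL261 replicate 2.

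Of 13 lymphocyte markers, 10 were listed at 0 in all libraries, and the others were each above 0 in 1 library. Cd3e was among those at 0. The exceptions were Cd79a at 22.4 FPKM in control replicate 2, Cd4 at 2.90 FPKM in B16 replicate 1 and Cd2 at 3.43 FPKM in B16 replicate 3. Endothelial markers differed between the groups. The name MLEC follows the sort and is kept here for every group. Many lymphatic markers were nevertheless lower, and many blood endothelial markers higher, in tumor-associated libraries. Of 22 blood endothelial markers, 10 were called higher and 0 lower in tumor-associated against control MLECs (background 2.9% higher and 1.02% lower). Their summed FPKM was 3799 to 5788 in control libraries, between 10400 and 18370 in GL261, and between 8732 and 11690 in B16. The largest differences among the called genes were those of Ly6c1 (10.48), Ly6a (8.12), Cd34 (6.38), Flt1 (6.18) and Esam (6.03). Ly6c1 was listed at 0 in every control library, so it could not have been lower. Ly6a was listed at 0 in control replicates 1 and 3. The sizes of both depend on the pseudocount and are not fold changes. Flt1, a VEGF receptor of blood endothelium, was at most 0.856 FPKM in control MLECs and at least 48.96 FPKM in tumor-associated MLECs. Of 17 lymphatic endothelial markers tested, 7 were called lower and 0 higher (background 1.02% lower and 2.9% higher). At an unadjusted p under 0.05 by limma, 15 of the 17 passed in either direction (background 19%). The summed FPKM of this list was 14110 to 17900 in control libraries, between 1160 and 3200 in GL261, and between 2272 and 7022 in B16. Thy1 (-3.72), Ccl21c (-3.32, a gene with near-identical copies, so uncertain), Stab2 (-3.04), Maf (-2.56) and Mmrn1 (-2.56) had the largest differences among the called genes, while Ccl21b, one of those copies, had -5.48 (adjusted p = 0.0651). Flt4, the receptor of VEGF-C, was called lower (-1.80, adjusted p = 0.0160), whereas Prox1, the transcription factor of lymphatic identity, had -2.79 (adjusted p = 0.0509) and Pdpn -1.48 (adjusted p = 0.235). Prox1 had 20.9, 33.7 and 42.2 FPKM in control, 1.87, 1.98 and 16.5 FPKM in GL261, and 2.37, 3.72 and 3.115 FPKM in B16 MLECs. In the single tumors Cldn5 of the blood endothelial list was called lower in GL261 (-1.01, adjusted p = 0.0215) and Foxc2 of the lymphatic list higher in B16 (3.13, adjusted p = 0.0457). Of 3 mural cell and fibroblast markers tested, Dcn was called lower (background 1.02% for tumor-associated against control MLECs). Lyve1, an antigen of the sort, was above 0 in all 9 libraries and overlapped between the groups (-0.36, adjusted p = 0.629). The part of these marker changes in the class II values was not tested.

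The genes whose log2(FPKM + 1) across the 9 libraries was most like the mean of H2-Aa, H2-Ab1 and H2-Eb1 were ranked by Pearson's r over 9945 genes, as a description. The first 5 outside the 10 pathway genes were Rpe (0.923), Picalm (0.921), Itgav (0.911), Epm2aip1 (0.895) and Mzt2 (0.89). Of the pathway genes, Cd74 had the highest r (0.929), followed by Ctss (0.715), H2-DMb1 (0.695), Ifi30 (0.656), H2-DMa (0.653) and Ciita (0.603), and Rfx5 was negative (-0.42). The points share libraries of unequal depth.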

How the data were processed

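RNA-seq of MLECs was compared in 3 control, 3 GL261 and 3 B16 libraries, grouped by their labels. Per the labels and methods, the authors amplified cDNA by 18 cycles, sequenced 150 bp pairs, aligned them to mm9 with TopHat 2.0.12 and deposited FPKM from Cufflinks 2.2.1, 1 value per gene and library. The annotation given to Cufflinks and any use of strand are not given in the sources used here. FPKM hold no read counts, so the depth behind a value is unknown and no interval for a single value is given. The study's aligned reads served only as a covariate.

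log2(FPKM + 1) was tested with limma 3.58.1 in R 4.3.3 (lmFit, eBayes with a trend, Benjamini-Hochberg over the 9955 genes that reached 1 FPKM in 3 or more libraries, threshold 0.05). Tumor against control used 2 groups, and the other comparisons 3 groups with 1 shared spread. On simulated data, limma recovered 98 of 200 genes given a log2 change of 3 for tumor against control (57 for GL261, 56 for B16), with 7 (3 and 4) unchanged genes called. Alternatives were a pseudocount of 0.1, sums of 1000000, quantile normalization, no filter, eBayes without a trend, a replicate block, the covariate, the ROC power and each library left out. Named genes are the 10 genes, up to 5 genes a list with the largest difference among those called for tumor against control or GL261 against B16, the defining markers of leukocytes and endothelium, and the 5 genes most like the chains. Other genes of the lists, such as Socs1, Ctsz, Irf1, Rfxank, Rfxap, Mrc1, Lyz2, C1qa, Tyrobp and genes at or near 0, were named after their values were seen. Some genes of these lists are not reported here. The members and lists were chosen with earlier results of these data known.

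Positions are from GENCODE M1 (mm9) and promoters from RefSeq (GRCm38.p6), and these builds were not mixed. Tables and figures used Python 3.11.15, pandas 2.3.3, numpy 2.4.6, matplotlib 3.10.9 and biopython 1.88.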

Additional observations from a re-analysis of the deposited data

Results flagged for a closer look

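GL261 replicate 2 stood apart from the other tumor-associated libraries in 6 of the 10 genes. Among the 6 tumor-associated libraries its FPKM was far above the next value in H2-Aa (365.2 FPKM, a gap to the next library of 0.827 of the range), H2-Eb1 (239.8 FPKM, 0.863), H2-DMa (13.0 FPKM, 0.719), Cd74 (960.6 FPKM, 0.834), Ctss (285.6 FPKM, 0.939) and Ifi30 (15.45 FPKM, 0.667), each past Dixon's critical value for 6 samples. The gap was tested 20 times, on FPKM and on log2(FPKM + 1). The limit marks about 1 in 20 groups by chance only for normal values of a single population. FPKM here joined GL261 and B16 libraries and were not shown to be normal, so that rate cannot be applied. The tests also shared libraries, and each gene entered on both scales, so the marks are not separate evidence. On the log2 scale 0 values were past the limit. No gene had GL261 and B16 libraries that all moved in opposite directions from the controls.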

How the results depend on the processing

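Apart from GL261 against control without control replicate 3, limma called none of the 10 genes in the other alternatives, with or without a library. That setting gave 2 calls (H2-Ab1 and H2-Eb1). For tumor against control 9 of the 10 genes passed the ROC power (5392 genes in all). Of these 9, 4 were listed at 0 in every control library and could only come out higher. With a library left out, the 10 genes gave 0 calls for tumor against control, 0 to 2 for GL261, 0 for B16 and 0 for GL261 against B16. Of all genes, limma then called 245 to 444 for tumor against control, 105 to 363 for GL261 and 69 to 274 for B16, lowest without GL261 replicate 2, GL261 replicate 2 and B16 replicate 3 and highest without control replicate 2, and 1 to 4 for GL261 against B16. Without a filter the counts were 254, 218 and 135, and with aligned reads as a covariate 9, 2 and 5. GL261 against B16 gave 2 genes after quantile normalization and 6 without a trend in the variance.

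Scaling to equal sums gave 329 genes for tumor against control, 209 of them higher (289 of 391 as deposited), and quantile normalization 383, 238 higher. These scalings moved the median of all genes by -0.148 and -0.174, and the median of the 10 genes was 2.34 and 2.21 under them.

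With the covariate the median of the 10 genes for tumor against control was 0.39 in place of 2.26 (Cd74 0.39, H2-Eb1 0.64), while for GL261 against control H2-Ab1 was 10.55 (adjusted p = 0.561) and H2-Aa 8.69 (adjusted p = 0.651). Differences reversed with the covariate for tumor against control in H2-DMa (-1.27), Ctss (-0.76) and Ifi30 (-0.40), for GL261 against control in H2-DMa (-1.45) and Socs1 (-0.40), for B16 against control in H2-DMa (-1.31) and Ifi30 (-0.021), and for GL261 against B16 in H2-DMa (-0.14). With a library left out, differences of B16 against control ran from -0.46 to 2.54 in H2-Aa (below 0 without B16 replicate 1), from -0.30 to 3.05 in Cd74 (below 0 without B16 replicate 3, -0.12 without control replicate 1 and -0.20 without control replicate 2) and from -1.19 to 1.40 in Ctss (below 0 without B16 replicate 1, and -0.38 without control replicate 1 or 3). For GL261 against B16, Ciita was -0.12 after quantile normalization and ran from -0.22 (without B16 replicate 2 or 3) to 0.61 with a library left out, and Rfx5 ran from -0.62 to 0.38 (above 0 without B16 replicate 2). The cause was not tested.

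The replicate numbers did not pair the libraries. The correlations of deviations between same-numbered libraries lay between -0.033 and 0.044, and 3 of 9 libraries correlated best with their own number. With a replicate block limma called 303 genes for tumor against control, 230 for GL261, 146 for B16 and 1 for GL261 against B16, and 0 of the 10 genes in each.

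With 3 libraries of 10 cells a group, standard errors of 0.60 to 1.91 limit which differences of these genes can pass. Depth differed with the tumor groups and cannot be told apart from them. Time of collection differed between GL261 and B16 and cannot be told apart from the tumor line.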
